A study of Mus musculus with 10 samples.

Results

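Promoter contacts of mature bone marrow neutrophils were compared with those of the progenitors from which such cells arise, in wild-type C57BL/6 mice. The comparison took 4 of the 10 libraries of the series. They were 2 replicates of lineage-negative (Lin-) bone marrow cells, which the labels call hematopoietic stem and progenitor cells (HSPCs), and 2 replicates of bone marrow neutrophils. The 6 libraries of mutant mice were not used. The groups share genotype, strain and tissue, and differ in cell type. They also differ in how pairs were listed in their files, as given below. Cell type cannot be told apart from any difference in processing between the files. Marrow was flushed from femurs and tibias, red cells were lysed, and each population was taken with a magnetic isolation kit, a lineage depletion kit for the HSPCs and a neutrophil isolation kit for the neutrophils. Lin- marrow is a mixture of stem cells and progenitors of several lineages, so the HSPC values are averages over that mixture. Replicates are named as biological duplicates, with no statement on pooling of mice. Contact data carry no expression level, so the cell types were not checked against defining markers.

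Promoter capture Hi-C joins DNA ends that lie close together in the nucleus and then pulls down those with a promoter fragment, the bait, at one end. The fragment ligated to it is called the other end, and it may hold an enhancer, another promoter or neither. Neutrophils leave the cell cycle as they mature, fold their nucleus into lobes, fill granules in a set order and switch on receptors for migration and chemokine genes. Stem cell regulators are known to be turned down along the way. Here cells were fixed with 1% formaldehyde for 10 minutes, cut with HindIII and captured with 39684 probes for 22047 promoters.

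The deposited value is an interaction score for each pair of bait and other end. What the score measures is not given in the sources used here. It is not a read count, and the sequencing depth behind it is unknown. A pair was called a contact of a group when it scored 5 or more in both replicates. On the autosomes and X chromosome this gave 30834 contacts in HSPCs and 25578 in neutrophils, at 7650 and 6733 baits. Each group therefore has 1 contact list, and a count from it has no replicate spread and no test.

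The replicates of HSPCs were not alike. Taken alone within the listed pairs, HSPC replicate 1 had 47214 pairs at 5 or more and replicate 2 had 41506. Across the 7902 contacts of both lists, Spearman's rho was 0.47 between the HSPC replicates and 0.39 between the neutrophil replicates. HSPC replicate 1 correlated with the neutrophil replicates at 0.33 and 0.26, and HSPC replicate 2 at 0.25 and 0.17. These are correlations across pairs that share baits and are given as descriptions only. Because of this difference, counts from each HSPC replicate alone are given where they matter. Such a count asks for 1 replicate at 5 or more, not both, so it exceeds the HSPC list by its construction.

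Most contacts were on 1 list only. The lists shared 7902 contacts, which were 25.6% of the HSPC list and 30.9% of the neutrophil list. Another 22932 contacts were listed in HSPCs only and 17676 in neutrophils only. When other ends up to 10 kb apart counted as the same contact, 12951 neutrophil contacts (50.6%) had a partner in HSPCs and 13316 HSPC contacts (43.2%) had one in neutrophils. Part of the difference between lists lay close to the threshold. Of the contacts listed in neutrophils only, 6149 also stood in the HSPC file below the call, with a median score of 4.80 in HSPC replicate 1 and 3.91 in replicate 2. Among them 2759 reached 5 in HSPC replicate 1 and 1176 in HSPC replicate 2. The other 11527 were not in the HSPC file, so their HSPC scores are not known. The neutrophil file holds only pairs at 5 or more in both replicates, so near misses cannot be seen there.

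Contacts found in both cell types were shorter and higher in score by their medians. Their median distance was 148 kb, against 199 kb for HSPC-only contacts and 166 kb for neutrophil-only contacts. At a score of 10 or more the shared and neutrophil-only medians were close, 160 and 164 kb. The plot of distances shows the HSPC-only share below the other classes between 50 and 200 kb and above them from 200 to 400 kb. The share over 1 Mb was 1.89% in shared, 3.21% in HSPC-only and 2.59% in neutrophil-only contacts. For scores of 7 or more, the shared class (3.71%) stood above the neutrophil-only class (3.31%). The other end was itself a bait in 43.2% of shared contacts, 28.6% of HSPC-only contacts and 26.5% of neutrophil-only contacts. A contact between 2 baits can be seen from either side. In the HSPC list 2696 of 9968 such contacts (27.0%) were called from both, and in the neutrophil list 3678 of 8102 (45.4%). Shared contacts scored a median of 8.36 and 7.71 in the HSPC replicates and 8.26 and 8.09 in the neutrophil replicates. Medians of contacts on 1 list only were 6.68 and 6.62 in HSPCs and 6.70 and 6.72 in neutrophils. Scores just above the threshold were more common outside the overlap. The lower replicate scored 5 to 6 in 53.3% of HSPC-only and 51.9% of neutrophil-only contacts, against 30.3% and 30.9% of shared contacts.

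**Figure D1:**
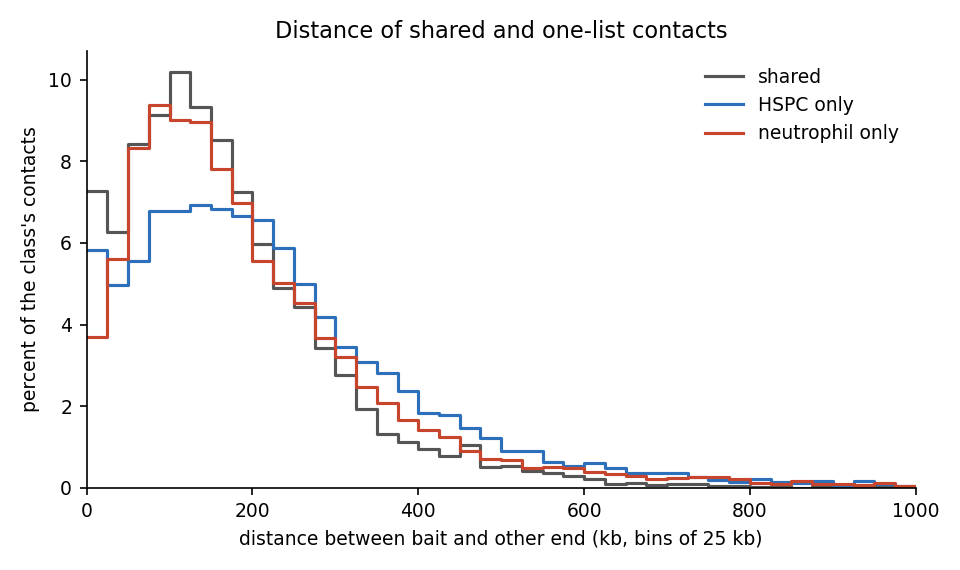
Distance between bait and other end in kb, in bins of 25 kb up to 1000 kb, as the percent of all contacts of a class. Grey is shared, blue HSPC only and red neutrophil only; the medians are 148 kb, 199 kb and 166 kb.

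Per promoter, the difference was uneven. Among 3124 baits with at least 5 contacts in the lists together, 485 (15.5%) had 3-fold or more contacts in neutrophils, counted as (contacts + 1), and 791 (25.3%) had 3-fold or more in HSPCs. This balance moved with the threshold, and settings that change only the HSPC rule shift it by their construction. From HSPC replicate 1 or 2 alone, 310 to 403 baits had 3-fold more in neutrophils and 1316 to 1522 had 3-fold fewer. At a score of 7 or more in both groups the numbers were 200 and 219, and with 7 asked of HSPCs only, a setting chosen after seeing the data, they were 1000 and 84. The plot of contacts per bait shows both arms reaching the axes. Of the baits with 10 or more contacts in HSPCs, 84 had none in neutrophils, and 31 of these 84 still appeared as the other end of a neutrophil contact. In the other direction 83 baits with 10 or more neutrophil contacts had none in HSPCs, and 32 of these were other ends of HSPC contacts. A bait absent from a list may have been left out in the authors' processing, which was not tested.

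**Figure D2:**
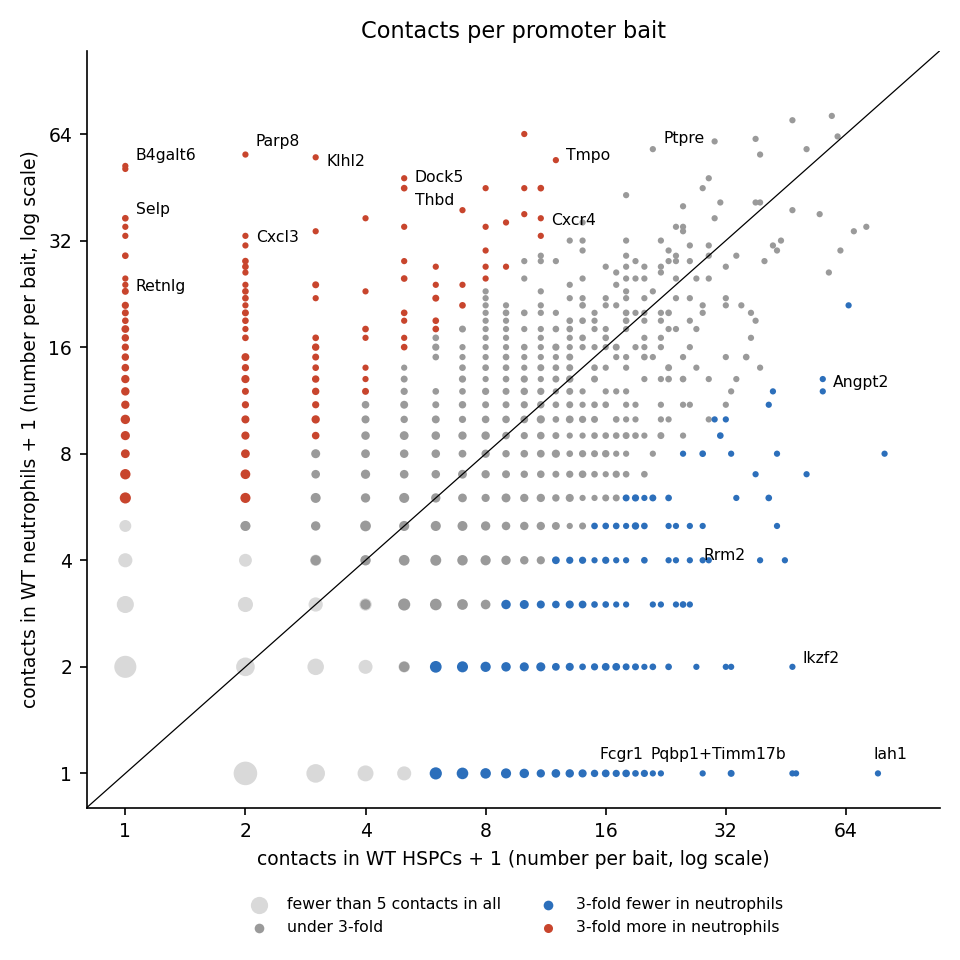
Number of contacts per bait plus 1 in WT HSPCs (x axis) and WT neutrophils (y axis), on log scales; point size grows with the number of baits at a position. Red marks 485 baits with 3-fold more contacts in neutrophils and blue 791 with 3-fold fewer, and named baits such as Cxcl3 (1 and 32) and Iah1 (76 and 0) lie at the edges.

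Genes for neutrophil surface receptors and migration had 47 contacts in HSPCs and 149 in neutrophils. The list held 40 genes, of which 31 had a bait with at least 1 listed pair and 27 a contact. A captured promoter with no listed pair is not counted as a bait, here and below. Contacts were more numerous in neutrophils at 19 of these genes, fewer at 5 and equal at 3. Of its 11 baits with at least 5 contacts, 6 had 3-fold more and 1 had 3-fold fewer, against 15.5% and 25.3% of all baits. The ratio of neutrophil to HSPC contacts was 3.17, and for all genes with a bait it was 0.83. Of all 8955 genes with a contact, 3189 had more contacts in neutrophils, 4831 had fewer and 935 were equal, and the tallies of each list below are to be read beside these.

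Cxcr4, the CXCL12 receptor that retains neutrophils in marrow, had contacts in both cell types, 10 in HSPCs and 36 in neutrophils, and 9 of the HSPC contacts were shared. They formed groups on both sides of the bait, from -344 to 243 kb in neutrophils and from -344 to 241 kb in HSPCs (negative values lie toward lower coordinates). HSPC replicate 1 alone had 17 contacts and replicate 2 had 13. The strongest pair, at the promoter of Dars (an aspartyl-tRNA synthetase), scored 17.8 and 19.8 in neutrophils and 6.14 and 3.53 in HSPCs. Over the 9 shared contacts, mean log2(score + 1) was 3.15 and 2.98 in the HSPC replicates and 3.67 and 3.51 in the neutrophil replicates. The groups did not overlap, and the difference of 0.53 (SE 0.16) did not pass limma's test after Benjamini-Hochberg adjustment (adjusted p = 0.065).

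Clec7a, which encodes the beta-glucan receptor dectin-1, had 3 contacts in HSPCs and 16 in neutrophils, with 2 shared. Other ends in neutrophils included the baits of the neighbouring lectin genes Clec12b, Clec1b and Clec9a. Ltb4r1, the leukotriene B4 receptor that guides neutrophil swarming, had 0 and 9 contacts. As an other end, however, its fragment was in 2 HSPC contacts and 10 neutrophil contacts. Members of the list with fewer contacts in neutrophils included Fcer1g, an adaptor of Fc receptors (10 and 4), and Siglecf (5 and 1), a lectin of eosinophils.

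**Figure D3:**
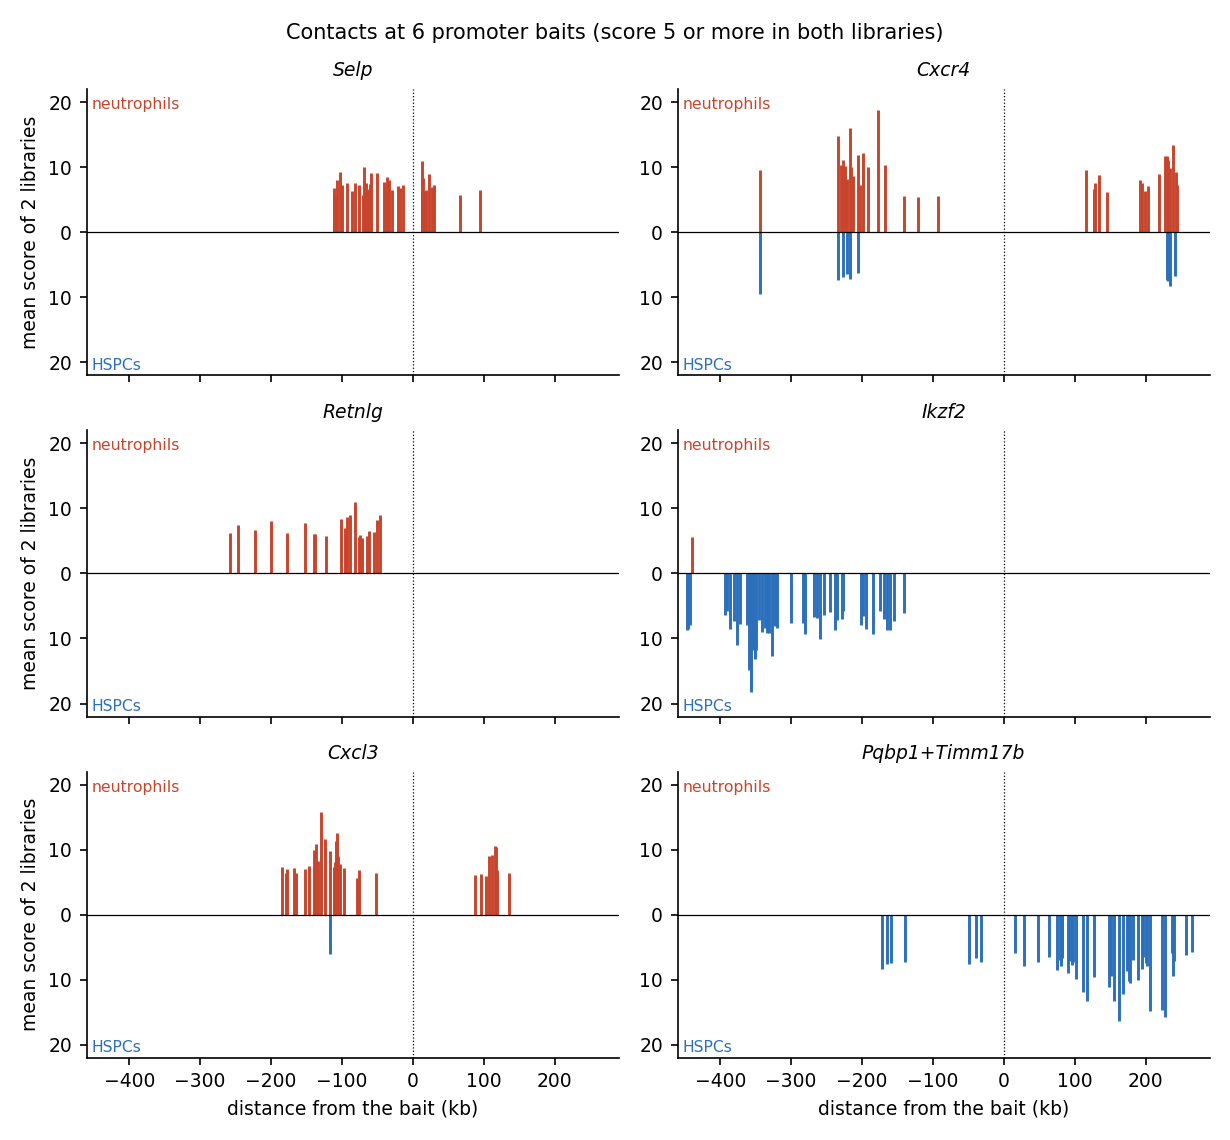
Contacts at 6 promoter baits by distance in kb from the bait; upward red lines give the mean score of the neutrophil replicates and downward blue lines that of the HSPC replicates, for pairs at 5 or more in both replicates. Selp, Retnlg and Cxcl3 have 36, 22 and 32 lines above and 0, 0 and 1 below, Cxcr4 has lines on both sides, and Ikzf2 and Pqbp1 with Timm17b have 46 and 47 below.

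Inflammatory output genes of neutrophils had 45 contacts in HSPCs and 152 in neutrophils, and 30 of them were shared. Among 17 genes with a contact, 13 had more in neutrophils, 3 had fewer and 1 was equal. At 8 of the 10 baits with at least 5 contacts the number was 3-fold higher in neutrophils, and at none was it 3-fold lower. Over all baits these shares were 15.5% and 25.3%. The 8 include the neighbouring baits of Ccl9, of Ccl6 and of Ccl3 with Ccl4, which are not independent. Ccl3 and Ccl4 count as 2 genes on 1 bait. The ratio for the list was 3.38, and 2.73 without Cxcl3. HSPC replicate 1 alone would give 96 contacts for this list and replicate 2 alone 57, both below the 152 of neutrophils. Cxcl3, a chemokine that recruits further neutrophils through CXCR2, had 1 and 32 contacts. They lay from -184 to 135 kb of its bait and reached the baits of Cxcl1, a related chemokine, and Rassf6. The single HSPC contact was shared and scored 5.88 and 6.35 in the HSPC replicates. The strongest pair, at -130 kb, scored 15.4 and 16.2 in neutrophils and 9.61 and 2.61 in HSPCs, so that HSPC replicate 1 passed 5 there and replicate 2 did not. In the same cluster 1 bait holds the start sites of Pf4 and Ppbp, which encode platelet chemokines. It had 0 contacts in HSPCs and 12 in neutrophils, which reached Cxcl1, Cxcl2 and Rassf6.

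The CC chemokine genes Ccl3 and Ccl4 share a bait, with 0 contacts in HSPCs and 12 in neutrophils. Of these 12 pairs, 8 were in the HSPC file with medians of 4.84 and 2.91. HSPC replicate 1 alone had 6 contacts there and replicate 2 had none. Ccl6 had 0 and 14 contacts, among them the bait of Ccl4. Ccl3 with Ccl4 and Ccl6 had the same strongest other end, chr11:83734934-83738874, next to the bait of Wfdc21. From the Ccl3 and Ccl4 bait it scored 11.3 and 9.70 in neutrophils and 5.55 and 3.76 in HSPCs. From the Ccl6 bait it scored 11.6 and 10.3 in neutrophils and 8.52 and 3.20 in HSPCs. Lta4h, the enzyme that makes leukotriene B4, had 5 and 17 contacts, and Dusp1, a phosphatase that restrains MAP kinases, had 0 and 9. Nfkbia, encoding the NF-kB inhibitor IkB-alpha, had contacts in both, 24 and 39 with 23 shared. Mean log2(score + 1) over those 23 was 3.68 and 3.20 in HSPCs and 3.56 and 3.71 in neutrophils, and the groups overlapped.

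Granule genes are given by the stage at which the granule forms. Secondary and tertiary granule genes, used late in maturation, had 22 contacts in HSPCs and 59 in neutrophils. Of 10 with a contact, 7 had more in neutrophils, 2 fewer and 1 the same number. Retnlg, a resistin-like protein of late neutrophils, had 0 and 22 contacts from its bait at chr16:48867183-48878473. All 22 lay on 1 side, from -259 to -46.6 kb, and none was in the HSPC file. Their medians were 6.87 and 6.06 in the neutrophil replicates. Without Retnlg the ratio for the list was 1.68 in place of 2.68. Mmp8, neutrophil collagenase, had 2 and 9 contacts with none shared. Wfdc21, encoding a secreted protein of the whey acidic protein family, had 11 and 17 over its baits. Primary granule genes, used at the promyelocyte stage, had 40 and 28 contacts, with 4 genes more and 5 fewer. Their ratio was 0.70, and 0.92 without Elane, around the 0.83 of all genes. Elane, neutrophil elastase, had 15 and 5, of which 4 were shared, and its strongest pair at Arid3a scored 9.99 and 7.11 in HSPCs and 5.90 and 5.81 in neutrophils. Hexa, a lysosomal hexosaminidase subunit, had 1 and 10. Genes of the NADPH oxidase and of microbial killing had 47 and 52. Either HSPC replicate alone gave more than the neutrophil list (89 and 63), as over all genes (38482 and 33704 against 20741). The calcium-binding alarmin genes S100a8 and S100a9 had 8 and 6, and 8 and 5. S100a6, another member of that family, had 11 and 0.

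Promoter sequences are shown for 4 genes with more contacts in neutrophils (Retnlg, Mmp8, Clec7a, Cxcl3) and for 2 stem cell regulators with fewer (Lyl1, Tal1), to set the letters beside the counts. Each is the 250 bases before the start site from RefSeq (GRCm38.p6), 5′ to 3′ on the gene's strand. The intervals are chr16:48872358-48872607 (plus strand), chr9:7558179-7558428 (plus), chr6:129472780-129473029 (minus), chr5:90785851-90786100 (plus), chr8:84701207-84701456 (plus) and chr4:115056176-115056425 (plus). Capitals mark matches on either strand to letters known for factors of these lineages or for the core promoter. For C/EBP, a factor of granule genes, the letters were TTGCNNAA. For PU.1, the main myeloid factor, they were GAGGAA. For GATA factors of stem and erythroid cells AGATAA was used, and for the TATA box TATAAA.
Retnlg: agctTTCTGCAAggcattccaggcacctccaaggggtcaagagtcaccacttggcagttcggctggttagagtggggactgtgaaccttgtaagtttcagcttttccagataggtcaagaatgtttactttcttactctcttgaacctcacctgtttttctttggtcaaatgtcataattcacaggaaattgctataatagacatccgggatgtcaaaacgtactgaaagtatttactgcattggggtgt
Mmp8: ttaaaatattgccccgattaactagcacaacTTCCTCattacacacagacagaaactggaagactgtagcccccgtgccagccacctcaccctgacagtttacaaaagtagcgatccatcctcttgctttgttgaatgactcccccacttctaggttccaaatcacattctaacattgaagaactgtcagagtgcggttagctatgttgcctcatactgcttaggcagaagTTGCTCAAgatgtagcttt
Clec7a: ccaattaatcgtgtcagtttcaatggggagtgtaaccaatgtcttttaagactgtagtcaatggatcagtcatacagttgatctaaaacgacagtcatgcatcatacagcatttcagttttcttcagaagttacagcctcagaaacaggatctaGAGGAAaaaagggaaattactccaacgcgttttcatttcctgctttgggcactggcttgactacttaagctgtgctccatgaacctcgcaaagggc
Cxcl3: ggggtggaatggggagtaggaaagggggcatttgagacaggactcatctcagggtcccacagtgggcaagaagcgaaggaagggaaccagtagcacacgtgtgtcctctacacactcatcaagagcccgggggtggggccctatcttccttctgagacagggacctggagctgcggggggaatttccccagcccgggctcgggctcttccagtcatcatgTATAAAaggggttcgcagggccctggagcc
Lyl1: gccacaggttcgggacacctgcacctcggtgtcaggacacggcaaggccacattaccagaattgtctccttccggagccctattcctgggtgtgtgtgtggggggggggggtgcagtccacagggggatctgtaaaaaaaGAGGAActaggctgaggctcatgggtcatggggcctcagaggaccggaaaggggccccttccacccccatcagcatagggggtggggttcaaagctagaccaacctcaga
Tal1: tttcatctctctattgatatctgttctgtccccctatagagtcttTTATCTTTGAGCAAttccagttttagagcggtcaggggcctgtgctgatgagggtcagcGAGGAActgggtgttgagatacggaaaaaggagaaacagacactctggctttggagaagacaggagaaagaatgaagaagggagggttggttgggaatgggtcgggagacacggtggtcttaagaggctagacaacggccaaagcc
Retnlg held 1 C/EBP match, Mmp8 a C/EBP and a PU.1 match, Clec7a 1 PU.1 match and Cxcl3 a TATA box. Lyl1 held 1 PU.1 match, and the Tal1 window shown held a GATA match directly followed by a C/EBP match, and 1 PU.1 match. Over 21263 windows of all protein-coding promoters, 9.09% held the C/EBP letters, 22.2% PU.1, 8.81% GATA and 11.6% the TATA box. At baits with 3-fold more contacts in neutrophils the shares of 355 windows were 6.48%, 25.9%, 6.76% and 9.58%. At baits with 3-fold fewer they were 6.70%, 23.3%, 6.06% and 6.54% of 627 windows. Over the 2646 windows of all baits with at least 5 contacts, the fitting background, they were 7.07%, 22.3%, 6.46% and 7.75%. A match describes letters in this window and is not a binding site.

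Transcription factors of granulocytes had 85 contacts in HSPCs and 115 in neutrophils, with 12 genes more and 4 fewer of 18, beside 3189 more and 4831 fewer of 8955 over all genes. HSPC replicate 1 alone gave 170 contacts and replicate 2 alone 99, counts that ask for 1 replicate where the 115 asks for both. Over all genes such counts were 38482 and 33704, beside 20741 in neutrophils. Fos, an immediate early factor, had 1 and 13 contacts, and HSPC replicate 1 alone had 9. Ets2, a factor downstream of growth signals, had 0 and 10. Its strongest pair, 245 kb away, scored 18.0 and 13.3 in neutrophils and 5.26 and 3.35 in HSPCs. Cebpb, used in emergency granulopoiesis, had 2 and 5. Spi1, which encodes PU.1, had 2 contacts in each list and none shared.

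Stem and progenitor genes showed the opposite balance. They had 126 contacts in HSPCs and 46 in neutrophils, with 6 shared. Of 25 with a contact, 18 had fewer in neutrophils, 5 had more and 2 were equal. At 8 of 12 baits with at least 5 contacts the number was 3-fold lower in neutrophils, and at 3 it was 3-fold higher, against 25.3% and 15.5% of all baits. Ikzf2, which encodes the zinc-finger factor Helios and is used in stem cells and regulatory T cells, made up much of this. Its bait had 46 contacts in HSPCs, all from -447 to -141 kb, and 1 in neutrophils at -439 kb. The HSPC contacts scored up to 24.7 in replicate 1 and 14.3 in replicate 2, with medians of 8.74 and 7.36. Without Ikzf2 the ratio for the list was 0.56 in place of 0.37.

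Lyl1, a partner factor of stem and early lymphoid cells, shares its bait with Trmt1. It had 18 contacts in HSPCs and 5 in neutrophils, all 5 shared, with other ends that included the baits of Klf1, Nfix and Calr. Esam, an adhesion molecule of stem cells, had 8 and 0. Tal1, Lmo2, Hlf and Hoxa7, regulators of the stem cell programme, had 5 and 0 each. A few members had more contacts in neutrophils. Etv6, a repressor that stem cells need, had 0 and 10. Cd93, a receptor of progenitors, myeloid cells and endothelium, had 0 and 12, and 10 of these pairs were in the HSPC file with medians of 3.19 and 2.55. Sox4, a factor of early progenitors, had 1 and 7.

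Lists of other blood lineages were included because Lin- marrow holds their progenitors. Erythroid genes had 105 contacts in HSPCs and 70 in neutrophils, with 13 genes fewer and 4 more of 17. The ratio was 0.67, and 0.74 without the bait of Trim10 and Trim15, beside 0.83 over all genes. Car2, carbonic anhydrase 2, had 31 and 21 with 8 shared, and the factor gene Gata1 had 5 and 0. Monocyte, macrophage and dendritic genes had 36 and 16. Fcgr1, the high-affinity IgG receptor CD64, had 16 of those HSPC contacts and none in neutrophils. Without Fcgr1 the ratio was 0.80 in place of 0.44, close to the 0.83 of all genes. B lineage genes had 47 and 25, and without Pou2f2, a B cell factor, the ratio was 0.77 in place of 0.53. T and NK lineage genes had 39 and 44, with 6 genes more and 6 fewer, and without Cd2, a T cell adhesion molecule, the ratio was 0.82 in place of 1.13. The list of basophil, eosinophil and mast cell genes had 12 and 7. Megakaryocyte and platelet genes had 89 and 111, with unlike members. Angpt2, an angiopoietin, had 55 and 11, and without it the ratio was 2.94 in place of 1.25. Members with contacts in neutrophils alone included Selp, Thbs1 and the bait of Pf4 and Ppbp given above. Selp, encoding P-selectin of platelets and endothelium, had 0 contacts in HSPCs and 36 in neutrophils from its bait at chr1:164100267-164119571. They lay from -112 to 94.7 kb, with median scores of 7.06 and 7.42 in the neutrophil replicates, and none stood in the HSPC file. Thbs1, encoding thrombospondin 1, had 0 and 16. The neural and silent reference list, genes with no role in blood, had 22 and 13.

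Some lists of general cell functions differed too. Nuclear envelope and lamina genes had 28 contacts in HSPCs and 98 in neutrophils, and this rested on Tmpo and Syne1. Of 14 genes with a contact, 7 had more, 6 fewer and 1 the same. Tmpo encodes LAP2, an inner nuclear membrane protein family. It had 11 and 53 contacts, and all 11 HSPC contacts were shared. Its strongest pair, 72.5 kb away, scored 18.0 and 20.2 in neutrophils and was not in the HSPC file. Syne1, encoding nesprin-1 that ties the nucleus to the cytoskeleton, had 0 and 34. The lamin genes Lmnb1 and Lmnb2 had 2 and 3, and 6 and 0. Cohesin and chromatin architecture genes had 72 and 26. Ncaph2, a condensin II subunit that shares its bait with Lmf2, had 19 and 3, Pds5a, a cohesin regulator, 17 and 2, and Wapl, the cohesin release factor, 13 and 0.

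Cell cycle and replication genes had nearly the same total, 158 and 154, made of unlike members, and the ratio of 0.97 became 1.26 without Rrm2. Rrm2, the small subunit of ribonucleotide reductase, had 38 contacts in HSPCs and 3 in neutrophils. In HSPCs its contacts included a run of 23 adjacent fragments. Mki67, a proliferation marker, had 8 and 26, and its bait contacted that of Ptpre. Aurka, a mitotic kinase, had 2 and 23, and Mcm6, a subunit of the replicative helicase, 7 and 18. The 7 HSPC contacts of Mcm6 were shared. Their mean log2(score + 1) was 3.58 and 3.00 in HSPCs and 3.85 and 4.12 in neutrophils, and the groups did not overlap. The difference of 0.70 (SE 0.20) did not pass limma's test (adjusted p = 0.0524). Interferon response genes had 81 and 66. Irgm1, an immunity-related GTPase, had 36 and 19 of these, and without it the ratio was 1.04 in place of 0.81. Ifitm3, an antiviral membrane protein, had 5 and 15. Apoptosis and survival genes had 35 and 33, and Bcl2, which delays cell death, 9 and 2; without Bcl2 the ratio was 1.19 in place of 0.94. Housekeeping genes had 85 and 42, with 9 genes fewer, 5 more and 2 equal, and Gapdh, a glycolysis enzyme, 21 and 0. Their ratio was 0.49, and 0.66 without Gapdh, beside 0.83 over all genes. The Gapdh fragment was still the other end of 5 neutrophil contacts and 4 HSPC contacts. The plot of the gene lists sets these totals side by side.

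**Figure D4:**
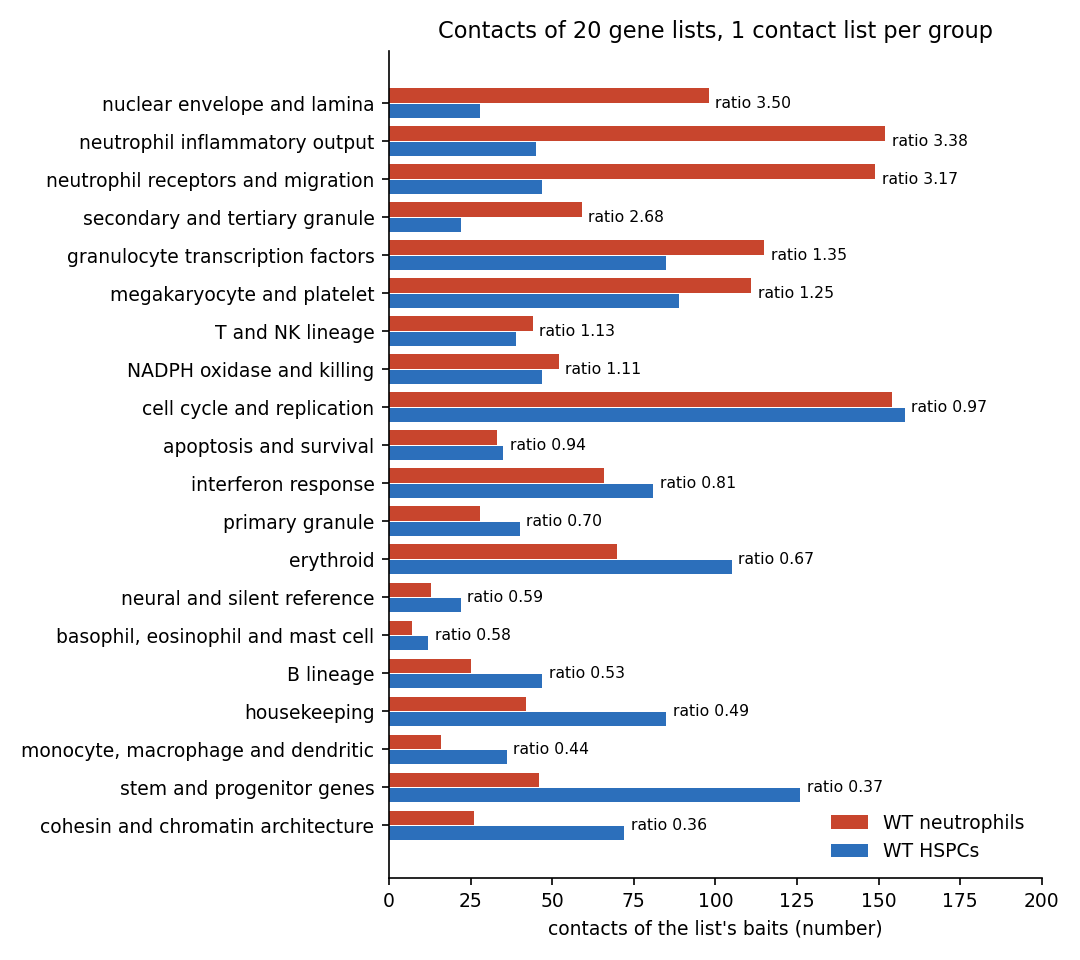
Number of contacts of the baits of 20 gene lists in WT HSPCs (blue) and WT neutrophils (red), ordered by the ratio of neutrophil to HSPC contacts, which is printed beside each pair of bars. Ratios run from 0.36 for cohesin and chromatin architecture to 3.50 for nuclear envelope and lamina; over all genes with a bait the ratio is 0.83.

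The 10 coding baits with the largest gain in number were led by genes outside the lists. Parp8, an ADP-ribosyltransferase, had 1 contact in HSPCs and 55 in neutrophils. Of its neutrophil-only pairs 44 stood in the HSPC file, with medians of 3.57 and 2.33. Klhl2, an adaptor for protein ubiquitination, had 2 and 54, with a run of 22 adjacent fragments. Its strongest pair, at the sterol enzyme gene Msmo1, scored 26.0 and 27.4 in neutrophils and 7.88 and 2.95 in HSPCs. B4galt6, a galactosyltransferase of lactosylceramide synthesis, had 0 and 51. Dock5, an exchange factor for Rac in cell movement, had 4 and 47. Thbd, encoding thrombomodulin, had 4 and 44, and HSPC replicate 1 alone had 24 contacts. Sgms2, a sphingomyelin synthase, had 0 and 36 with medians of 13.9 and 15.6, a run of 27 adjacent fragments, and 11 pairs in the HSPC file at medians of 4.01 and 1.93. Ptpre, a receptor-type tyrosine phosphatase, had 20 and 57, with all 20 HSPC contacts shared and a run of 35 adjacent fragments. Tmpo, Selp and Syne1 complete these 10.

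The 10 coding baits with the largest loss were led by Iah1, an esterase gene, with 76 contacts in HSPCs and 0 in neutrophils. Its strongest pair scored 17.2 and 17.4 in the HSPC replicates. As an other end the Iah1 fragment was in 3 HSPC contacts and 2 neutrophil contacts. The bait shared by Pqbp1 and Timm17b on the X chromosome had 47 and 0, at the baits of Gata1, Hdac6, Was and others. Ikzf2 and Angpt2 follow. The bait of Mapk11 and Mapk12, encoding p38 kinases, had 55 and 12, and that of Plxnb2, a semaphorin receptor nearby, 40 and 5. The pair of these 2 baits scored 11.3 and 9.52 in HSPCs and 5.51 and 9.65 in neutrophils from the Plxnb2 side, so the groups overlapped there. The bait of 9130023H24Rik, Armc5 and Tgfb1i1 had 44 and 3. Styk1, a kinase-like gene beside the natural killer receptor genes, had 42 and 4, with other ends at Klrd1, Klre1 and Klrk1. Rrm2 and Lpin2, a phosphatidate phosphatase with 40 and 5, complete the 10. Net1, with 42 and 7, had the same loss of 35 contacts as Rrm2, Plxnb2 and Lpin2 and was left out because ties were ordered by fold.

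Contacts were also summed by the position of their baits, and whether such baits cluster was not tested. By windows of 1 Mb, the largest excess in neutrophils was at 148 Mb of chromosome 2, with 10 contacts in HSPCs and 157 in neutrophils over 10 baits that include Thbd, Cd93 and Cst3. At 135 Mb of chromosome 7, with Ptpre and Mki67, the counts were 47 and 165. The window at 83 Mb of chromosome 11, with the CC chemokine and Slfn genes, had 16 and 106, and that at 90 Mb of chromosome 5, with the CXC chemokines, 23 and 105. The largest excess in HSPCs was at 89 Mb of chromosome 15, with Mapk11, Mapk12 and Plxnb2, at 258 and 48. The window at 7 Mb of the X chromosome, with Gata1 and Pqbp1, had 195 and 3. By chromosome, the ratio of neutrophil to HSPC contacts ran from 0.40 on X and 0.56 on chromosome 17 to 1.29 on chromosome 16, and was 0.83 over all.

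The strength of contacts present in both cell types was tested pair by pair. None of 7902 pairs passed limma's test on log2(score + 1) after Benjamini-Hochberg adjustment (percent called 0, smallest adjusted p = 0.230). At an unadjusted p under 0.05 there were 1004 pairs, 537 higher and 467 lower in neutrophils. The replicates of 1 group lay entirely above those of the other at 3459 pairs (43.8%). The largest differences are given as a description, with adjusted p-values of 0.230. A pair of Uba6, an enzyme that activates ubiquitin and FAT10, with the bait of Stap1 scored 6.20 and 5.69 in HSPCs and 18.2 and 29.1 in neutrophils. A pair at the Slc40a1 bait, which encodes the iron exporter ferroportin, scored 8.52 and 9.22 in HSPCs and 40.4 and 18.8 in neutrophils. On the lower side, the bait of the histone genes H2bc9 and H3c7 and that of H4c6 scored 43.9 and 33.7 in HSPCs and 9.85 and 10.7 in neutrophils. A bait inside Smarca5, a chromatin remodeller, had 3 such pairs about 1 Mb away. The strongest of them scored 34.1 and 22.3 in HSPCs and 8.73 and 6.42 in neutrophils.

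Averaged over at least 5 shared contacts, 18 of 402 baits passed the test (4.48%). Shared contacts were stronger in neutrophils at 13 of these (3.23%) and weaker at 5 (1.24%). At all 18 baits the replicates of the groups did not overlap, as at 53.5% of the 402. Leaving out HSPC replicate 2 left 0 calls, and leaving out HSPC replicate 1 left 11. With quantile normalization 52 baits passed, 34 higher and 18 lower, among them all 18. With at least 3 contacts per bait 16 were higher and 13 lower, and over all pairs in both files, where only neutrophil scores were held to 5, 181 were higher and 5 lower. The median difference over all 402 baits was 0.07. The plot of the 18 baits shows each library.

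Slc35f5, a solute carrier, had the largest difference among baits with a gene. Its 13 shared contacts averaged 3.53 and 3.04 in the HSPC replicates and 4.33 and 4.20 in the neutrophil replicates on the log2(score + 1) scale, a difference of 0.98 (SE 0.18, limma adjusted p = 0.00916). Uba6 averaged 2.97 and 3.03 in HSPCs and 3.75 and 3.91 in neutrophils over 14 contacts, a difference of 0.83 (SE 0.16). Nepro, a nucleolar and neural progenitor protein, differed by 0.82 (SE 0.17). Grk5, a kinase that desensitises G protein-coupled receptors, averaged 3.43 and 3.18 in HSPCs and 4.01 and 4.21 in neutrophils, a difference of 0.80 (SE 0.17). Commd8, a COMMD family protein, also differed by 0.80 (SE 0.16). A bait at Parp10, an ADP-ribosyltransferase, differed by 0.79 (SE 0.20) and the neighbouring bait of Parp10 and Plec by 0.76 (SE 0.16). These 2 baits are neighbours and are not independent. Slc40a1 averaged 3.35 and 3.48 in HSPCs and 4.40 and 3.96 in neutrophils, a difference of 0.76 (SE 0.18, adjusted p = 0.0200). Tbl1xr1, a corepressor subunit, differed by 0.75 (SE 0.17), the bait of Baz2b and Marchf7 by 0.65 (SE 0.16), and Ptpre by 0.63 (SE 0.17). The other 2 higher baits are adjacent fragments at chr12:91787157-91789794 and chr12:91789795-91792223 with no coding start site. They differed by 0.92 (SE 0.18) and 1.02 (SE 0.16).

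Of the 5 weaker baits, that of Fbxo24, an F-box protein gene, and Pcolce, a procollagen enhancer gene, averaged 4.01 and 4.49 in HSPCs and 3.73 and 3.21 in neutrophils, a difference of -0.78 (SE 0.20, adjusted p = 0.0367). Cabp4, a calcium-binding protein gene, with Gpr152 differed by -0.73 (SE 0.16), and Vars, a valyl-tRNA synthetase gene, with D17H6S56E-5 by -0.72 (SE 0.20). Net1, an exchange factor for RhoA, averaged 3.68 and 3.57 in HSPCs and 3.00 and 3.02 in neutrophils, a difference of -0.62 (SE 0.16). The largest difference, -1.08 (SE 0.17, adjusted p = 0.00239), was at a bait inside Ybx3 with no coding start site, which also had 79 contacts in HSPCs and 7 in neutrophils. Strength and number went together at these baits. Neutrophil contacts outnumbered HSPC contacts at 13 of the 13 stronger baits and were fewer at 4 of the 5 weaker ones. Over the 402 baits Spearman's rho between the score difference and the log ratio of contact numbers was 0.73. It is given as a description, since both come from the same 4 libraries. A contact is counted by its score reaching 5, so number and strength are also linked by construction.

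**Figure D5:**
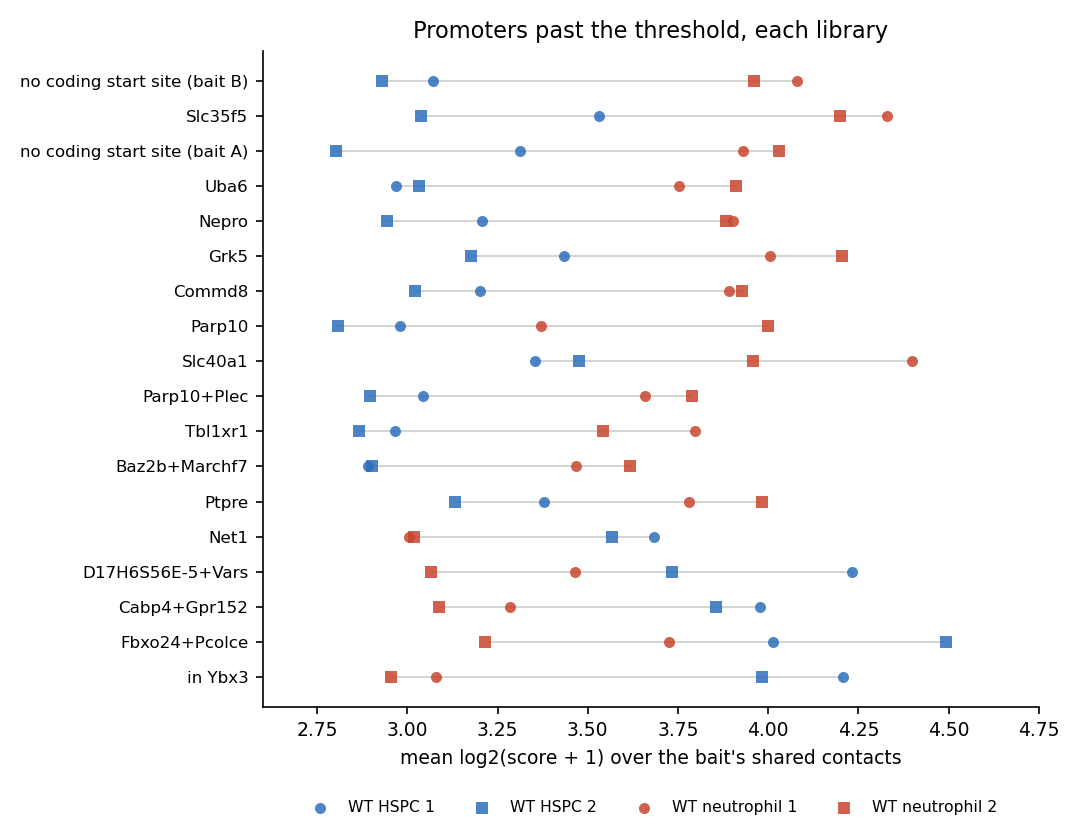
Mean log2(score + 1) over shared contacts of the 18 baits past limma's adjusted p of 0.05, ordered by difference; blue is HSPC, red neutrophil, circles replicate 1 and squares replicate 2. The red and blue symbols do not overlap at any of the 18 baits, with 13 higher and 5 lower in neutrophils.

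Few list members could be tested on strength. Within the lists the baits with at least 5 shared contacts numbered from 0 to 6, and Slc40a1 of the erythroid list was the only one past the threshold. Baits of cell cycle genes had a median difference of 0.04 over 6, granulocyte factors -0.10 over 3, and megakaryocyte and platelet genes 0.17 over 3, beside 0.07 over all genes. By distance, mean log2(score + 1) differed by less than 0.1 between the groups in every class within a chromosome. Under 50 kb it was 3.26 and 3.21 in HSPCs and 3.17 and 3.11 in neutrophils, over 1070 pairs. The groups did not overlap in that class, with an exact permutation p of 0.333 (two-sided), the smallest that 2 against 2 libraries allow. From 100 to 200 kb, with 2790 pairs, it was 3.29 and 3.18 in HSPCs and 3.31 and 3.28 in neutrophils, a difference of 0.06 (exact permutation p = 0.667).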

How the data were processed

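Promoter capture Hi-C scores were analysed from 2 WT HSPC and 2 WT neutrophil libraries. Per the file headers, the deposited files give a score per pair of HindIII fragments. Per the submitters' processing notes the build is mm10. The aligner and caller, and the rule by which pairs were listed, are not given in the sources used here. The HSPC file holds 88624 pairs and the neutrophil file 25622, and 14093 are in both; 205 pairs outside the autosomes and X chromosome were not used. Pairs were matched on coordinates. Only the 13008 fragments that were the bait of at least 1 listed pair counted as baits, also where the other end is called a bait. Genes were assigned to baits by start sites of the RefSeq tables (GRCm38.p6); for 2291 of 11623 genes with no start site there, either gene end was used. Scores were tested as log2(score + 1) with limma 3.58.1 in R 4.3.3, 2 against 2 libraries, two-sided, with Benjamini-Hochberg adjustment at 0.05; the fit was tested on simulated data. P-values measure the spread between these libraries. Depth is unknown, so no counting error is given. Same-numbered replicates did not deviate together. Alternatives were other thresholds, normalizations, pseudocounts, selections of pairs and left-out replicates. Named were the 10 promoters most different in each direction, the 10 baits with the largest gain and loss, the pairs with the largest differences, and up to 4 members of each of 20 gene lists. The members and lists were chosen with earlier results of these data known. Some genes are not reported here.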

Additional observations from a re-analysis of the deposited data

How the results depend on the processing

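At a score of 7 or more, the lists held 9191 HSPC and 8198 neutrophil contacts with 2185 shared, and 200 baits had 3-fold more and 219 had 3-fold fewer contacts in neutrophils. At 10 or more these were 2158, 2043, 431, 53 and 51. From 1 HSPC replicate alone, HSPC contacts numbered 41506 to 47214, baits with more 310 to 403 and baits with fewer 1316 to 1522. Matching other ends within 10 kb gave 12951 neutrophil contacts and 13316 HSPC contacts with a partner in the other list. Among settings chosen after seeing the data, HSPC contacts at 3 or more numbered 56207 (275 baits more, 2062 fewer), and at 7 or more 9191 (3828 shared, 1000 more, 84 fewer).

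For shared, HSPC-only and neutrophil-only contacts, median distances were 155, 192 and 163 kb at 7 or more. At 10 or more they were 160, 187 and 164 kb. Shares over 1 Mb were 3.71%, 5.15% and 3.31%, then 6.26%, 8.22% and 5.77%. Shares with a bait as other end were 50.1%, 38.5% and 31.4%, then 57.1%, 49.8% and 36.9%.

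The test of pairs called 1 at 10 or more and 29 over all pairs in both files, where HSPC scores were not selected; it called 0 under the other settings. The 18 promoter calls became 52 with quantile normalization, 0 at 10 or more (9 baits tested), 186 over all pairs in both files, 32 under 1 Mb and 29 with at least 3 pairs. With 1 replicate left out they ranged from 0 to 24. All 18 promoters kept their direction under every setting that could test them. With quantile normalization 1 promoter of the receptor list and 1 of the cell cycle list passed; with at least 3 pairs 1 of the cell cycle list did. The replicate block left 0 promoter calls and 0 pair calls. Deviations of same-numbered libraries correlated at -0.01 (pairs) and -0.07 (promoters). These correlations cannot tell whether same-numbered libraries were prepared together. The causes were not tested.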
